A study of Rattus norvegicus with 39 samples.

Results

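The mature rat microRNAs (miRNAs) rno-miR-16-5p, rno-miR-191a-5p and rno-miR-103-3p, written below without the prefix rno, were followed in rat sperm across a dose series of the solvent ethylene glycol monomethyl ether (EGME), a known toxicant of the testis. They are 3 of the 405 rows of the mature miRNA count table, and all 3 are among the 105 rows that passed a filter on low counts and were tested. They were selected on their shares of the miRNA counts, as abundant sperm miRNAs, so their abundance is described here and not tested. The name "abundant" held for miR-191a-5p and miR-16-5p, which ranked 2 and 3 of all rows by mean share over the 39 libraries. Their order rested on 1 library: without EGME60 replicate 6 miR-16-5p ranked 2 (mean share 8.86%) and miR-191a-5p 3 (8.64%), and in EGME0 they ranked 2 and 3 in that order. The name did not hold for miR-103-3p, which ranked 36.

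Wild-type male Fischer rats were given water (the vehicle, EGME0, n = 10) or EGME in water at 50 (EGME50, n = 10), 60 (EGME60, n = 9) or 75 mg/kg/d (EGME75, n = 10). Dosing was by daily oral gavage for 5 days and was followed by 5 weeks without exposure in every group. Sperm came from the cauda epididymis of males aged 11 to 12 weeks, and each library holds the total RNA of 1 male. Libraries were made from 10 ng of RNA with the Ion total RNA-seq kit v2 and were labelled with 13 chips of 3 libraries each, every chip holding at least 2 dose groups.

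A mature miRNA is a short RNA, cut from 1 arm of a hairpin precursor, that guides an Argonaute protein to messenger RNAs. Pairing through the seed, bases 2 to 8 from the 5′ end, decides most of its targets, so miRNAs that share a seed are grouped as a family. miR-16 belongs to the miR-15/16 family, known for repressing cyclins and BCL2. miR-103 and its near copy miR-107 are encoded in introns of pantothenate kinase genes and are known from lipid and insulin metabolism. miR-191 is made from the same transcript as miR-425. All 3 are expressed in many tissues and have often been used as reference miRNAs in PCR work, where a level that does not vary is wanted. Mature sperm make little RNA of their own, and much of their small RNA is either left from spermatogenesis or taken up in the epididymis.

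The sequences are shown with the seed in capitals, because 2 of the 3 miRNAs share most of it and because a single base separates miR-103-3p from its near copy. They are from RefSeq (build GRCr8), which held a mature sequence for 372 of the 405 row names.
miR-16-5p: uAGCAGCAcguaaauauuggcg
miR-191a-5p: cAACGGAAucccaaaagcagcug
miR-103-3p: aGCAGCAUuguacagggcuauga
miR-107-3p: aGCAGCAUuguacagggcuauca
miR-15b-5p: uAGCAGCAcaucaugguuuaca
miR-195-5p: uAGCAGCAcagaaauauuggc
The string AGCAGCA starts at base 2 of miR-16-5p and at base 1 of miR-103-3p, so the seeds of these miRNAs overlap with an offset of 1 base. The seed AACGGAA of miR-191a-5p occurred in no other row with a sequence. miR-107-3p shares 22 of 23 bases with miR-103-3p and differs by G22C (miR-103-3p base first, positions from the 5′ end). Among the rows with a sequence, the seed AGCAGCA was shared by miR-15b-5p, miR-16-5p, miR-195-5p, miR-322-5p and miR-497-5p. A read that ends before base 22 cannot tell miR-103-3p from miR-107-3p, and how such reads were counted is not given in the sources used here.

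Each of the 3 miRNAs followed here sits in a hairpin inside a protein-coding gene. miR-16-5p lies at chr2:155555343-155555364 (plus strand, GRCr8) within the span of Smc4, a condensin subunit. In that span the Mir15b and Mir16 hairpins are 51 bases apart. miR-191a-5p lies at chr8:118142641-118142663 (plus strand) within the span of Dalrd3, where 366 bases separate the Mir191 and Mir425 hairpins. miR-103-3p has the same sequence in 2 hairpins. Mir103a2 lies in the span of Pank2, with the mature sequence at chr3:138963278-138963300 (plus strand), and Mir103a1 lies in the span of Pank3. The counts of miR-103-3p therefore cannot be assigned to either gene. For miR-16, the deposited RNAcentral counts have an entry mir-16-1 beside rno-mir-16. Whether all counts of miR-16-5p come from the hairpin in Smc4 was not tested. The 3 hairpins below carry the annotated mature arms in capitals. They show that miR-16-5p and miR-191a-5p come from the 5′ arm and miR-103-3p from the 3′ arm.
Mir16: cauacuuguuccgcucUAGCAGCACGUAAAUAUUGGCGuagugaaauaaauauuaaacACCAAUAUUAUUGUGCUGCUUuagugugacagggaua
Mir191: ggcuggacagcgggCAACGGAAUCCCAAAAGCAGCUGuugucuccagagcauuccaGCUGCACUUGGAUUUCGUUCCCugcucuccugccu
Mir103a2: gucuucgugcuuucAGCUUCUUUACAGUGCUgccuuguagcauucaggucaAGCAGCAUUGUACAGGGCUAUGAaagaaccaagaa

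The miRNA table was shallow, most of all in EGME75. Its total per library ranged from 139 to 38208 counts (median 10030), and the mean per group was 16573 counts in EGME0, 17625 in EGME50, 14258 in EGME60 and 3808 in EGME75. The 3 libraries under 1000 miRNA counts were all from EGME75 (replicates 7, 23 and 24, with 995, 807 and 139 counts). The miRNA table held on average 0.178% of the counts of the 4 deposited tables in EGME0 and 0.0554% in EGME75. The germ cell markers miR-34b, miR-34c, miR-449a and miR-449c made up 26.3% ± 4.35 (SD, n = 10) of the miRNA counts in EGME0 and 13.9% ± 4.60 (n = 10) in EGME75. Markers of other cells were present in every group. The summed share of blood cell markers was 0.145% ± 0.0982 (mean ± SD) in EGME0 and 1.26% ± 1.36 in EGME75. Epithelial markers held 0.861% ± 0.207 and 2.92% ± 1.004, and muscle markers 1.77% ± 0.727 and 4.43% ± 2.69. In bulk libraries of this kind fewer cells of a type and less RNA per cell cannot be told apart.

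miR-16-5p and miR-191a-5p were each among the most abundant miRNAs of control sperm. A share is the count of the miRNA divided by the library's miRNA table total. These miRNAs are 22 or 23 nt long, so shares were compared between them without length scaling. In EGME0 the share of miR-16-5p had a lowest value of 5.19%, a median of 10.7% and a highest value of 19.8% (mean 11.0% ± 4.73, SD, n = 10). The share of miR-191a-5p ran from 7.20% through a median of 8.64% to 19.9% (mean 10.8% ± 4.37). miR-103-3p was far lower, from 0.182% through a median of 0.673% to 0.796% (mean 0.633% ± 0.179). Within every library miR-16-5p and miR-191a-5p exceeded miR-103-3p, while neither of the pair was above the other throughout. miR-16-5p had the higher count of the pair in 22 of 39 libraries. It was the most abundant miRNA of all rows in 14 libraries and miR-191a-5p in 8, beside miR-34b-3p, which ranked 1 by mean share. The 3 miRNAs together made up 22.5% ± 4.93 of the miRNA counts in EGME0, 19.7% ± 4.19 in EGME50, 17.8% ± 10.1 in EGME60 and 15.1% ± 5.18 in EGME75.

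The share of miR-16-5p was lower in the higher dose groups. In EGME50 it ran from 7.37% through a median of 9.79% to 16.05% (mean 10.6% ± 2.89, n = 10). In EGME60 it ran from 3.52% through 5.68% to 12.7% (mean 6.28% ± 2.66, n = 9). In EGME75 it ran from 2.91% through 6.61% to 11.3% (mean 6.76% ± 2.33, n = 10). EGME0 and EGME50 covered a similar range, and 8 of 9 EGME60 and 9 of 10 EGME75 libraries lay below the control median of 10.7%. The groups still overlapped, since 4 of 9 EGME60 and 2 of 10 EGME75 libraries lay below the lowest control.

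The share of miR-191a-5p was spread by a few high libraries. In EGME50 it ran from 5.35% through a median of 8.16% to 16.9% (mean 8.48% ± 3.28). In EGME60 it ran from 5.26% through 6.94% to 40.3%, so that the mean, 10.8% ± 11.1, lay above 8 of the 9 libraries. Without the highest library, EGME60 replicate 6, the mean was 7.15%. In EGME75 it ran from 3.45% through 6.85% to 18.1% (mean 7.80% ± 4.15). Against these few high libraries, 6 of 9 EGME60 and 6 of 10 EGME75 libraries lay below the lowest control. The highest value belonged to EGME60 replicate 6, where 801 of 1990 miRNA counts were miR-191a-5p (40.3%, 95% Wilson interval 38.1 to 42.4%). The same library had 69 detected miRNAs and 0.0193% of its 4-table counts in the miRNA table. On its chip, chip 1, EGME0 replicate 26 held the highest control share of miR-191a-5p (19.9%), while EGME60 replicate 30 held 6.57%. Intervals on counts cover counting error only, because the reads carry no molecular identifiers that the labels name.

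The shares of miR-103-3p overlapped across all doses. In EGME50 it ran from 0.391% through a median of 0.672% to 1.13% (mean 0.684% ± 0.216). In EGME60 it ran from 0.151% through 0.647% to 1.02% (mean 0.643% ± 0.261), and in EGME75 from 0 through 0.549% to 0.844% (mean 0.507% ± 0.259). Below the lowest control lay 1 of 9 EGME60 and 1 of 10 EGME75 libraries, and above the highest control lay 2 of 10 EGME50, 3 of 9 EGME60 and 2 of 10 EGME75 libraries. The library at 0 was EGME75 replicate 24, with 0 of 139 miRNA counts, which allows a share of up to 2.16%. Several other low values rest on very few reads, such as 2 counts in EGME0 replicate 33, 3 in EGME60 replicate 6 and 2 in EGME75 replicate 23.

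**Figure D1:**
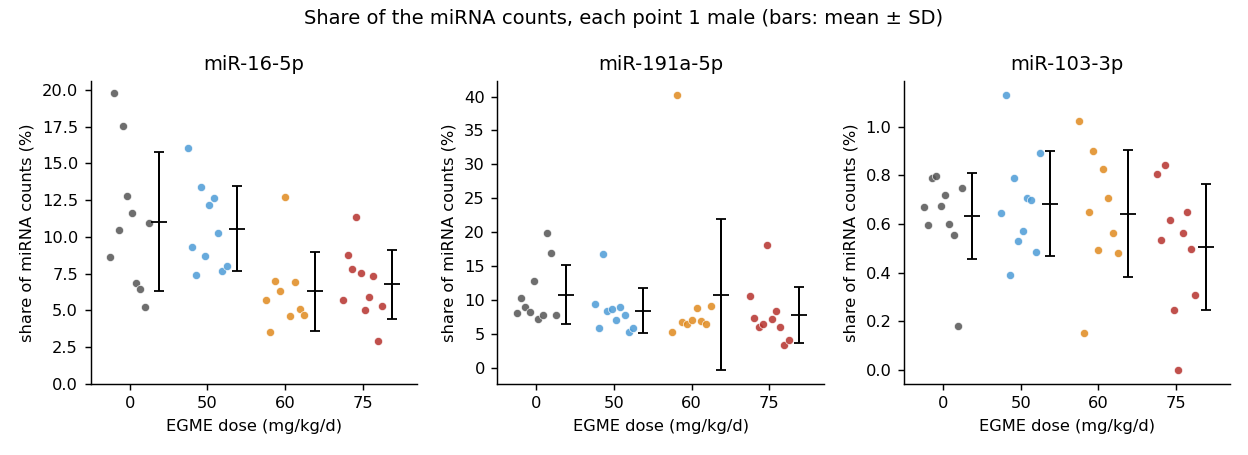
Share of the miRNA counts (%, linear axis, a different range in each panel) of miR-16-5p, miR-191a-5p and miR-103-3p against EGME dose, with 1 point per male and the mean ± SD as bars (n = 10, 10, 9 and 10). The miR-16-5p points move down at 60 and 75 mg/kg/d, a single EGME60 library stands at 40.3% for miR-191a-5p, and the miR-103-3p points overlap across doses.

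For the dose comparisons the whole table of 105 tested miRNAs was fitted with edgeR's quasi-likelihood test on TMM-scaled counts (trimmed mean of M values, a scaling that assumes most miRNAs hold their level), with Benjamini-Hochberg adjustment over the 105. Earlier results of these data were known when the miRNAs were chosen, so these comparisons describe them and give no independent support. At EGME75 all 3 were called lower at an adjusted p under 0.05, in a comparison where 42.9% of all tested miRNAs were called and 21% were called lower. At EGME60, where 31.4% were called and 11.4% were called lower, miR-16-5p alone of the 3 was called. At EGME50 none of the 3 was called, where 2.86% of all tested miRNAs were called and 0 were lower. The median log2 fold change of all tested miRNAs was -0.01 at EGME50, 0.11 at EGME60 and -0.10 at EGME75.

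miR-16-5p had the largest fitted fall of the 3, at both higher doses. Its scaled level in CPM (counts scaled to a library of 1000000) was 139002 ± 65186 (SD, n = 10) in EGME0, 111133 ± 42384 in EGME50, 62546 ± 26724 (n = 9) in EGME60 and 56256 ± 26733 in EGME75. The step between EGME60 and EGME75 was smaller than 1 SD of either group. All 9 EGME60 and all 10 EGME75 libraries lay below the control median of 126910 CPM, and 3 and 5 of them below the lowest control. The fitted log2 fold change against EGME0 was -0.32 ± 0.30 (SE, adjusted p = 0.636, edgeR's quasi-likelihood test with Benjamini-Hochberg adjustment) at EGME50. At EGME60 it was -1.15 ± 0.32 (adjusted p = 0.00405), which is a 2.22-fold lower level. At EGME75 it was -1.29 ± 0.31 (adjusted p = 6.11e-04), a 2.45-fold lower level. The slope on dose, written as the change over 75 mg/kg/d, was -1.26 ± 0.30 (adjusted p = 5.11e-04, with 45.7% of tested miRNAs called for a slope, 21% downward and 24.8% upward). Leaving out each library in turn kept both calls and the slope. With the log10 of the miRNA total as a covariate the EGME75 change was -0.76 ± 0.33 (adjusted p = 0.0784), so that call was lost when depth, which was lowest in EGME75, entered the fit.

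miR-191a-5p was lower at EGME75 and not called at the other doses. Its scaled level was 135244 ± 56031 CPM in EGME0, 93541 ± 57568 in EGME50, 126751 ± 176791 in EGME60 and 62591 ± 34310 in EGME75. Medians gave another order, with 110766 CPM in EGME0, 81665 in EGME50, 74600 in EGME60 and 57158 in EGME75. Most treated libraries lay under the control range, since 5 of 10 EGME50, 8 of 9 EGME60 and 8 of 10 EGME75 libraries were below the lowest control of 82330 CPM. The fitted log2 fold change was -0.53 ± 0.37 at EGME50 (adjusted p = 0.499), -0.10 ± 0.38 at EGME60 (adjusted p = 0.850) and -1.11 ± 0.37 at EGME75 (adjusted p = 0.0122). The last of these is a 2.16-fold lower level. EGME60 replicate 6 decided the EGME60 value: without it the log2 fold change was -0.94 (adjusted p = 0.0168) and the miRNA was called lower. The slope was -0.79 ± 0.37 (adjusted p = 0.0673) with all libraries, and it was called without EGME60 replicate 6 or without EGME75 replicate 23. With chip as a block it was also called, at -0.82 ± 0.31 (adjusted p = 0.0323). With the miRNA total as a covariate the EGME75 change was larger, -1.75 ± 0.41 (adjusted p = 4.41e-04).

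miR-103-3p had the smallest fitted fall of the 3 at EGME75, and single libraries decided its call. Its scaled level was 7975 ± 2249 CPM in EGME0, 6859 ± 1636 in EGME50, 6084 ± 1923 in EGME60 and 4291 ± 2213 in EGME75. Below the control median of 8651 CPM lay 9 of 10 EGME50, all 9 EGME60 and all 10 EGME75 libraries. The lowest control, 1814 CPM, was EGME0 replicate 33 with 2 counts, and 1 EGME75 library lay below it. The next lowest control, EGME0 replicate 26, was at 7402 CPM, above the highest EGME75 library at 7189 CPM. That comparison sets replicate 33 aside after seeing the data, and how many other miRNAs would part in this way was not counted. By share, 2 of 10 EGME75 libraries lay above the highest control. The fitted log2 fold change was -0.24 ± 0.29 at EGME50 (adjusted p = 0.669), -0.39 ± 0.30 at EGME60 (adjusted p = 0.316) and -0.80 ± 0.31 at EGME75 (adjusted p = 0.0285), the last a 1.74-fold lower level. The EGME75 call was lost without EGME75 replicate 23 or without EGME75 replicate 40, with an adjusted p of up to 0.0518. It was also lost with the log10 of the miRNA total as a covariate, at -0.37 ± 0.34 (adjusted p = 0.426). The slope was -0.67 ± 0.28 (adjusted p = 0.0409), and 20 of the 39 fits that each left out 1 library no longer called it. With chip as a block it was -0.72 ± 0.32 (adjusted p = 0.0682) and not called.

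**Figure D2:**
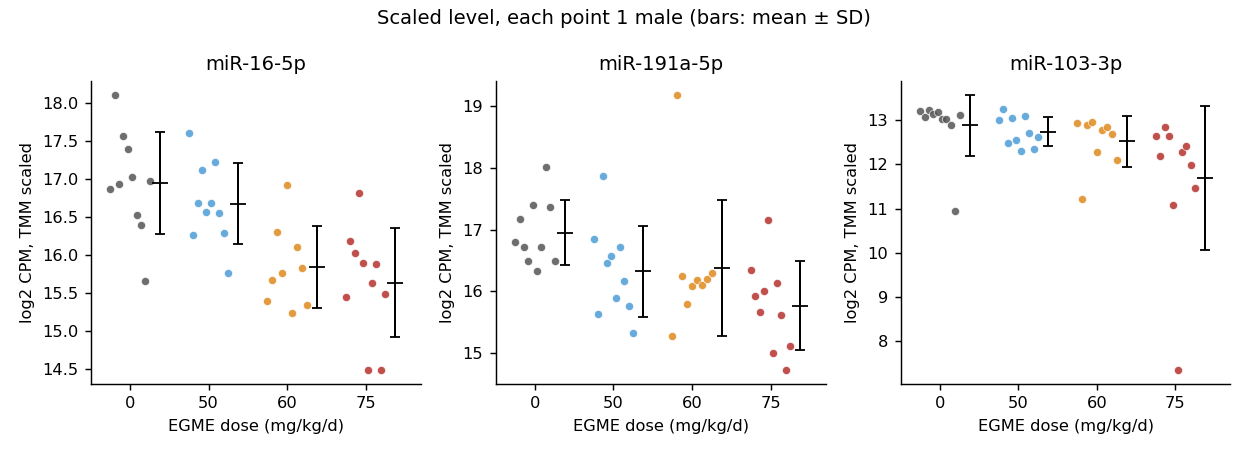
Scaled level (log2 CPM after TMM scaling, prior count 2, a different range in each panel) of the 3 miRNAs against EGME dose, with 1 point per male and the mean ± SD as bars. All EGME60 and EGME75 points of miR-16-5p and miR-103-3p lie below the control median, as do 9 of 10 EGME50 points of miR-103-3p. EGME60 replicate 6 stands at 19.19 for miR-191a-5p, and the lowest miR-103-3p point, 7.35, is the library with 139 miRNA counts.

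How large each fall looked depended on what the counts were scaled to. With the miRNA table total alone, which compares shares, the EGME75 log2 fold change was -0.69 ± 0.25 for miR-16-5p (adjusted p = 0.0209), -0.48 ± 0.30 for miR-191a-5p (adjusted p = 0.187) and -0.21 ± 0.32 for miR-103-3p (adjusted p = 0.614). That scaling moved the median of all tested miRNAs to 0.49 at EGME75 and 0.50 at EGME60. At EGME75 miR-16-5p, miR-191a-5p and miR-103-3p each lay about as far under the median of all miRNAs with this scaling as with TMM. Scaled to the 4 tables together, which hold the transfer RNA, other small RNA and miRNA counts, the EGME75 changes were -2.51 ± 0.53, -2.43 ± 0.53 and -2.05 ± 0.64 (adjusted p = 5.29e-05, 5.61e-05 and 0.00638), where the median of all miRNAs was -1.13. On that scale miR-16-5p had 186 ± 80.2 counts per 1000000 in EGME0 and 32.6 ± 20.1 in EGME75. miR-191a-5p had 183 ± 73.0 and 34.2 ± 18.7. For both, 10 of 10 EGME75 libraries lay below the lowest control. miR-103-3p had 11.5 ± 6.55 and 2.63 ± 2.80, and 7 of 10 lay below the lowest control. The whole miRNA table also fell on this scale, from a mean of 0.178% of the 4-table counts in EGME0 to 0.0554% in EGME75. How many of all tested miRNAs were called or lay apart from the controls on this scale at EGME75 is not given here. These values are therefore a description and not a trait particular to the 3.

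**Figure D3:**
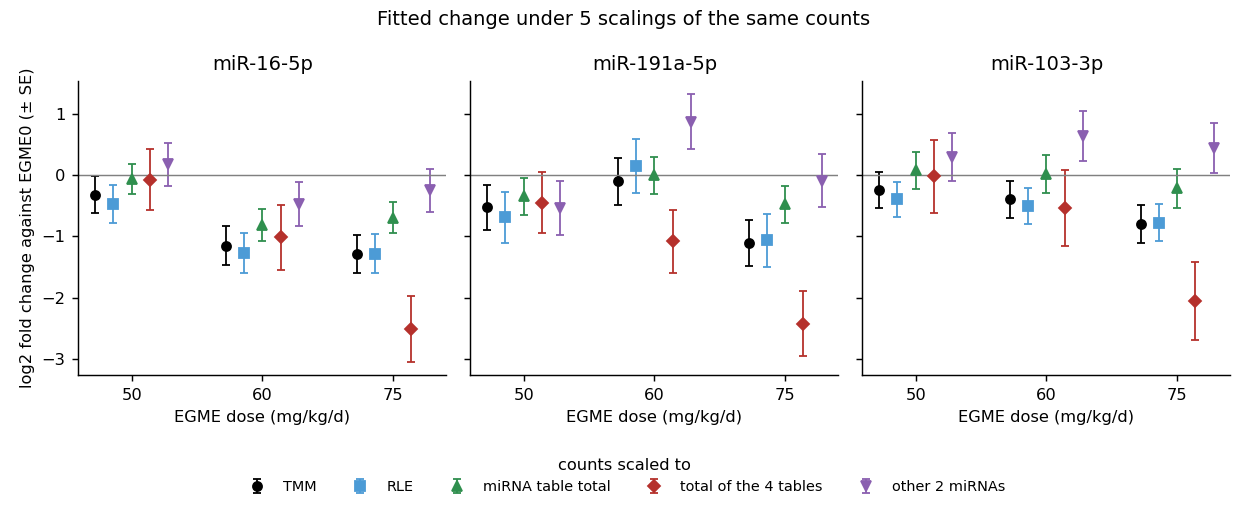
Fitted log2 fold change against EGME0 (± SE) of the 3 miRNAs at each dose, with the same counts scaled by TMM, by RLE (relative log expression), to the miRNA table total, to the total of the 4 tables, or to the summed counts of the other 2 miRNAs. At 75 mg/kg/d miR-16-5p ran from -2.51 to -0.25, miR-191a-5p from -2.43 to -0.09 and miR-103-3p from -2.05 to 0.44.

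Ratios between the miRNAs within a library do not depend on any scaling. The log2 ratio of miR-16-5p over miR-103-3p (counts plus 0.5) was 4.06 ± 0.50 in EGME0, 3.95 ± 0.51 in EGME50, 3.32 ± 0.76 in EGME60 and 3.60 ± 0.66 in EGME75. The lowest control was 3.51, and 7 of 9 EGME60 and 5 of 10 EGME75 libraries lay below it. As geometric means, control sperm held 16.7 counts of miR-16-5p per count of miR-103-3p and EGME60 sperm held 10.0. The log2 ratio of miR-16-5p over miR-191a-5p was 0.00 ± 0.96 in EGME0, 0.35 ± 0.59 in EGME50, -0.54 ± 1.24 in EGME60 and -0.14 ± 0.65 in EGME75. The means of the treated groups lay within 1 control SD of the control mean. The log2 ratio of miR-191a-5p over miR-103-3p was 4.06 ± 0.94, 3.61 ± 0.81, 3.86 ± 1.59 and 3.74 ± 0.89 from EGME0 to EGME75, and also moved by less than its SD. When each miRNA was scaled to the summed counts of the other 2, none was called at any dose. The smallest adjusted p at EGME75 was 0.395, for miR-103-3p at 0.44 ± 0.41.

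**Figure D4:**
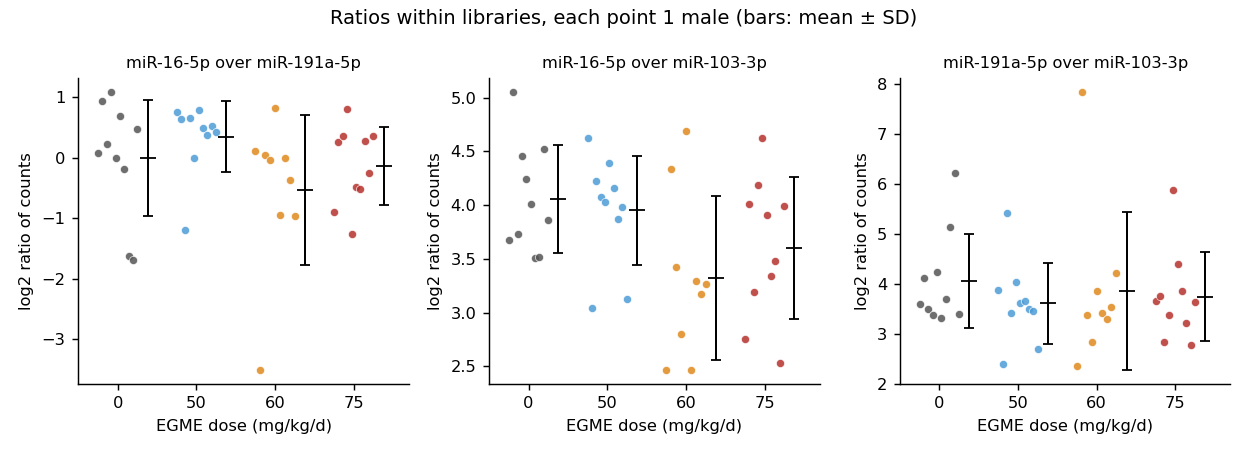
Log2 ratios of counts (plus 0.5) between the 3 miRNAs within each library against EGME dose, with 1 point per male and the mean ± SD as bars. The ratio of miR-16-5p over miR-103-3p shifts down at 60 mg/kg/d, with 7 of 9 libraries below the lowest control, while the other 2 ratios overlap and hold single far points from EGME60 replicate 6.

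Over the spread between males of a dose group, these miRNAs were steadier than most tested miRNAs. Among well covered miRNAs that held for miR-16-5p, while miR-191a-5p lay near the middle. The SD of log2 CPM within groups was 0.62 for miR-16-5p (6 of 105, counted from the smallest), 0.79 for miR-191a-5p (16) and 0.95 for miR-103-3p (22), where the median of all tested miRNAs was 1.27. Low counts widen this SD, and among 30 well covered miRNAs (100 counts or more per library on average) miR-16-5p was 5 and miR-191a-5p 15, where the median was 0.82. miR-103-3p, with 88.9 counts on average, was not in that set. miR-30d-5p had the smallest spread (0.36) and miR-26a-5p the next (0.53). Other miRNAs often used as references in PCR work were also followed, of which 6 of 7 passed the filter. At EGME75 1 was higher, 2 were lower and 3 did not pass, with a median log2 fold change of -0.47, so 3 of 6 were called where 42.9% of all tested miRNAs were. miR-24-3p was higher (1.34 ± 0.39, adjusted p = 0.0042), and miR-93-5p (-1.54 ± 0.38, adjusted p = 9.08e-04) and miR-26a-5p (-0.92 ± 0.28, adjusted p = 0.0055) were lower. miR-425-5p (-0.52 ± 0.31, adjusted p = 0.160), miR-25-3p (-0.42 ± 0.43, adjusted p = 0.415) and miR-423-5p (1.14 ± 0.67, adjusted p = 0.160) did not pass. At EGME60 miR-24-3p was the 1 called, at 1.65 ± 0.39 (adjusted p = 9.55e-04), and at EGME50 none was called.

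The close relatives of these miRNAs that passed the filter, miR-15b-5p and miR-195-5p, were not called lower at any dose. Of the 9 miRNAs listed as the group of miR-15, miR-16, miR-103 and miR-107, which includes miR-503-5p with the seed AGCAGCG, 8 were in the table and 4 passed the filter, including miR-16-5p and miR-103-3p. miR-15b-5p, next to miR-16 in Smc4 and with the same seed, had 2843 counts in all. Its share was 0.521% ± 0.357 in EGME0, 0.575% ± 0.456 in EGME50, 0.787% ± 0.664 in EGME60 and 0.764% ± 0.613 in EGME75. Its log2 fold change was 0.24 ± 0.53 at EGME60 (adjusted p = 0.742) and 0.12 ± 0.53 at EGME75 (adjusted p = 0.832). miR-195-5p, which differs from miR-16-5p by G10A and U11G over the 21 bases both have, rose at EGME60 (1.49 ± 0.60, adjusted p = 0.0473). At EGME75 it was 1.37 ± 0.63 (adjusted p = 0.0693). Its share was 0.0405% ± 0.0448 in EGME0 and 0.156% ± 0.145 in EGME75. The members that did not pass the filter had 228 (miR-107-3p), 130 (miR-322-5p), 114 (miR-497-5p) and 72 (miR-503-5p) counts in all libraries together. miR-16-5p made up 88.7% ± 5.38 of the group's counts in EGME0, 87.6% ± 4.36 in EGME50, 76.5% ± 10.2 in EGME60 and 81.5% ± 7.68 in EGME75.

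miR-107-3p, 1 base from miR-103-3p, held a larger part of the counts of the pair in the higher dose groups. With counts pooled over the libraries of a group, miR-107-3p was 2.64% of the counts of both in EGME0 (31 against 1144, 95% Wilson interval 1.86 to 3.72%). It was 4.10% in EGME50 (3.15 to 5.32%), 11.4% in EGME60 (9.52 to 13.5%) and 13.2% in EGME75 (9.59 to 17.9%). By library the highest control was 4.35%, and 7 of 9 EGME60 libraries and 8 of the 9 EGME75 libraries with a count of either lay above it. A fit with no filter, over 404 rows, gave miR-107-3p a log2 fold change of 1.66 ± 0.74 at EGME75 (adjusted p = 0.0999) and a slope of 1.81 ± 0.65 (adjusted p = 0.0329). In the same fit miR-103-3p was at -0.89 ± 0.40 at EGME75 (adjusted p = 0.0999). That fit called more miRNAs for the slope than the fit with the filter did, but over 404 rows instead of 105, so the numbers do not compare as shares. The share of the 404 rows called is not given here, and these values are a description. The difference between the 2 miRNAs was not tested, and the row of miR-107-3p is uncertain because it rests on few reads and on 1 base.

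The miRNA that shares a transcript with miR-191, miR-425-5p, kept an almost even share of the miRNA counts. Its share was 2.14% ± 0.814 in EGME0 and 2.23% ± 0.892 in EGME75. With TMM scaling its level was lower, at 27249 ± 12071 CPM in EGME0 and 18410 ± 8485 in EGME75. The fitted log2 fold change at EGME75 was -0.52 ± 0.31 (adjusted p = 0.160, edgeR's quasi-likelihood test). Compared by share, miR-191a-5p was not called at EGME75 either. As part of the summed counts of miR-191a-5p and miR-425-5p, miR-425-5p was 19.5% in EGME0 (95% Wilson interval 18.99 to 20.1%), 22.9% in EGME50, 26.3% in EGME60 and 28.9% in EGME75 (27.3 to 30.4%). By library the groups overlapped, from 6.57% to 28.6% in EGME0 and from 7.59% to 37.0% in EGME75. Of the 6 miRNAs listed as made from a transcript of miR-16 or miR-191, 4 were in the table, and the 2 that passed the filter, miR-425-5p and miR-15b-5p, were not called at any dose.

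**Figure D5:**
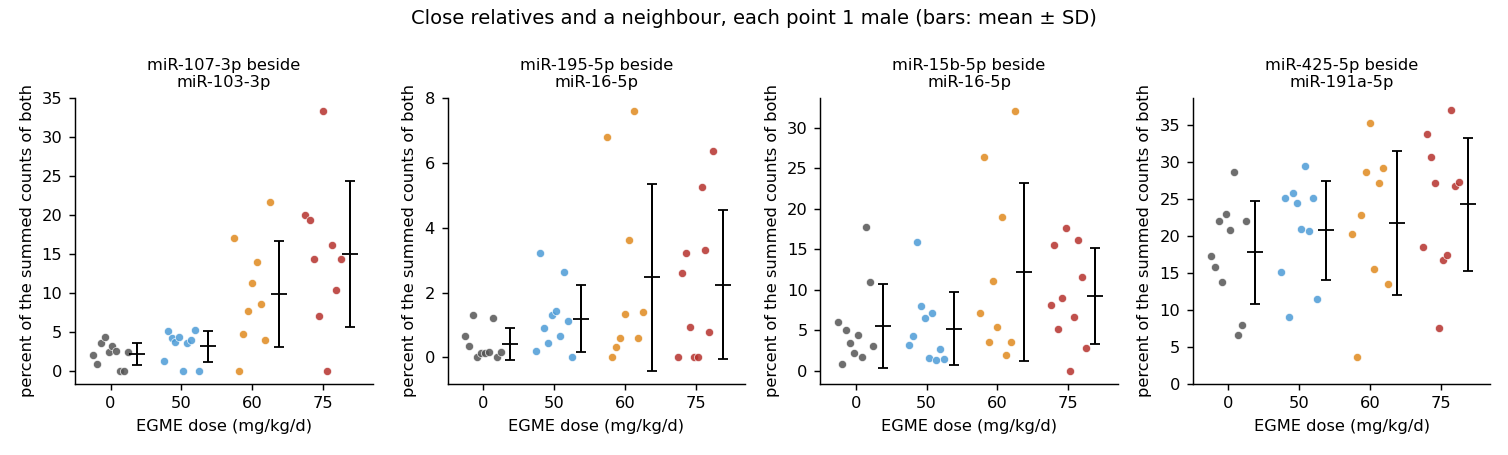
Counts of a relative or transcript neighbour as a percent of the summed counts of the pair, against EGME dose, for miR-107-3p beside miR-103-3p, miR-195-5p and miR-15b-5p beside miR-16-5p, and miR-425-5p beside miR-191a-5p, with 1 point per male with a count of either and the mean ± SD as bars. Most miR-107-3p points at 60 and 75 mg/kg/d lie above the highest control of 4.35%, and the miR-425-5p points overlap across doses.

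The other arms that have a row in the table had few counts. miR-103-2-5p, the other arm of Mir103a2, has no row and was not analysed here. miR-16-3p had 57 counts against 50000 of miR-16-5p over all libraries, miR-191a-3p had 114 against 41945, and miR-103-1-5p, of the Mir103a1 hairpin by its name, had 2 against 3466 of miR-103-3p. miR-16-3p had 32 counts in EGME0 (0.169% of the counts of both arms, 95% Wilson interval 0.120 to 0.238%), 20 in EGME50, 5 in EGME60 and 0 in EGME75. In EGME75 that was 0 of 2668 counts, which allows up to 0.112% by the limit of 3 counts, or 0.144% as the upper end of the Wilson interval, which overlaps the control interval. The intervals pool the reads of a group and leave out the spread between males, so their overlap is no test of a difference. By library, miR-16-3p had a count in 7 of 10 EGME0, 5 of 10 EGME50, 2 of 9 EGME60 and 0 of 10 EGME75 libraries. In the edgeR fit with no filter, over 404 rows, miR-16-3p was at -4.44 ± 1.40 at EGME75 (adjusted p = 0.0154). miR-15b-3p, the other arm of the neighbouring hairpin, was at -2.50 ± 0.75 (adjusted p = 0.0095). The share of all 404 rows called at EGME75 in that fit is not given here, so these values are a description. For miR-191a-3p the part was 0.251% in EGME0 (0.185 to 0.342%) and 0.171% in EGME75 (0.0666 to 0.439%), which overlap. Entries of the RNAcentral table for the precursors held 5 (rno-mir-16), 8 (mir-16-1) and 5 counts (rno-mir-191a) in all, beside the counts of the mature arms given above.

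By their levels over all 39 libraries, the miRNAs most like each of the 3 differed. The likeness is Spearman's rho of log2 CPM, given as a description, over libraries that share depth and dose. miR-16-5p was closest to miR-151-5p (0.84), miR-20a-5p (0.80), miR-17-5p (0.80), miR-743a-5p (0.75) and miR-7a-5p (0.75). miR-191a-5p was closest to miR-106b-3p (0.80), miR-93-5p (0.76), miR-34c-3p (0.75), miR-34b-3p (0.69) and miR-375-3p (0.66), of which both miR-34 arms are among the germ cell markers. miR-103-3p was closest to miR-741-3p (0.82), miR-106b-5p (0.72), miR-151-5p (0.71), miR-20a-5p (0.69) and miR-17-5p (0.69). The 5 were picked as the highest over all tested miRNAs, and none of the 3 was among the 5 of another. Among themselves the 3 had a rho of 0.64 between miR-16-5p and miR-103-3p, 0.50 between miR-16-5p and miR-191a-5p and 0.28 between miR-191a-5p and miR-103-3p. These lay above the medians that follow. Over all tested miRNAs the median rho was 0.12 with miR-16-5p, -0.05 with miR-191a-5p and 0.12 with miR-103-3p. Because the named miRNAs were picked as the highest, lower values for them under another measure could come from that choice alone. With the dose group means removed, the values of the named miRNAs and those among the 3 were lower. They ran from 0.52 to 0.68 for the 5 named with miR-16-5p, from 0.49 to 0.63 for those with miR-191a-5p and from 0.28 to 0.63 for those with miR-103-3p. Among the 3 themselves they were 0.34 (miR-16-5p and miR-103-3p), 0.29 (miR-16-5p and miR-191a-5p) and -0.01 (miR-191a-5p and miR-103-3p). The medians over all tested miRNAs were then 0.15 with miR-16-5p, -0.07 with miR-191a-5p and 0.24 with miR-103-3p.

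Markers of cells other than sperm and of germ cells moved with the same doses. Of all tested miRNAs, 21.9% were called higher and 21% lower at EGME75, and 20% higher and 11.4% lower at EGME60. At EGME75 4 of the 5 germ cell markers that passed the filter were lower, with a median log2 fold change of -1.05, beside -1.29 for miR-16-5p, -1.11 for miR-191a-5p and -0.80 for miR-103-3p. At EGME60 3 of 5 were lower. The listed germ cell marker that did not pass the filter, miR-449c-5p, lay the other way. In the edgeR fit with no filter it was at 1.96 ± 0.82 at EGME75 (adjusted p = 0.0851). Its slope in that fit was 2.14 ± 0.80 (adjusted p = 0.0485), where the share of all 404 rows called is not given here. All 3 tested blood cell markers (miR-451-5p, miR-223-3p and miR-150-5p) were higher at EGME60 and EGME75, with a median of 2.33 at EGME75. Their summed share ran from 0 to 0.343% in EGME0 and from 0.248 to 4.82% in EGME75. miR-486-5p was not in the table, and miR-144-3p had counts in 1 library. miR-142-3p and miR-142-5p did not pass the filter and lay in opposite directions. In the edgeR fit with no filter miR-142-3p was at 0.83 ± 1.09 (adjusted p = 0.640) at EGME75. miR-142-5p was at -1.14 ± 1.01 (adjusted p = 0.424). Of the epithelial markers 3 of 4 tested were higher at EGME75 (median 2.33), with a summed share of 0.625 to 1.29% in EGME0 and 1.81 to 4.77% in EGME75. Of the muscle markers 1 of 2 tested was higher (miR-145-5p, 0.94 ± 0.33, adjusted p = 0.0140), with a summed share of 0.954 to 3.27% and 1.12 to 9.80%, while miR-143-3p was at 0.49 ± 0.53 (adjusted p = 0.435). The striated muscle markers, which did not pass the filter, lay the other way: all 28 counts of miR-1-3p and 171 of the 211 of miR-133a-3p came from 1 control library, EGME0 replicate 10. The part of these cells in the levels of miR-16-5p, miR-191a-5p and miR-103-3p was not tested.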

How the data were processed

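Small RNA of 39 sperm libraries was counted by the authors against 4 references, and the deposited tables hold whole-number counts per feature that were not normalized, as their values show. FastQC, Bowtie and DESeq2 are named in the submitters' processing notes; the names of the other 3 tables give the build Rnor 6.0, and the aligner settings and the miRNA reference release are not given in the sources used here. Members and lists were chosen with earlier results of these data known. The authors' counts of 405 mature miRNAs were filtered with filterByExpr of edgeR 4.0.16 (105 kept, with 97.1% of the counts), scaled by TMM (factors 0.674 to 2.21) and fitted with the robust quasi-likelihood test on 4 dose groups in R 4.3.3 (limma 3.58.1), two-sided. P-values were adjusted by Benjamini-Hochberg over the 105, with a threshold of 0.05. The script was tested on simulated data. SEs are the log2 fold change divided by the root of F. Log2 CPM used a prior count of 2. Ratios used a pseudocount of 0.5. Wilson intervals are at 95%, and a 0 was given the limit of 3 counts. Depth ran from 139 to 38208 miRNA counts, so miR-103-3p rests on 0 to 374 counts per library. Alternatives were RLE factors, library totals, the 4-table total, no filter, DESeq2 1.42.0, chip as a block, log10 depth, only the groups compared, no libraries under 1000 counts, the other 2 miRNAs as scale, and each library left out. Of the 405 rows, 28 repeat another row's counts, none of them a row of the 3. Repeats were more common elsewhere, with 26128 of 78572 RNAcentral rows, 158 of 402 transfer RNA rows and 593 of 1563 other noncoding RNA rows. Whether the 4-table total counts some reads more than once was not tested. Named besides the 3 are the listed miRNAs that passed the filter and, for each, the 5 miRNAs with the highest Spearman correlation.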

Additional observations from a re-analysis of the deposited data

Results flagged for a closer look

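In 13 of 36 sets of values (each miRNA's share and log2 CPM and each log2 ratio, by dose group) 1 library stood apart from the others by Dixon's test. Chance flags about 1 in 20 such sets. EGME60 replicate 6, with 1990 miRNA counts, accounted for 5 of them: a miR-191a-5p share of 40.3% (next 9.11%), a miR-191a-5p log2 CPM of 19.19, a miR-103-3p log2 CPM of 11.23, a log2 ratio of miR-16-5p over miR-191a-5p of -3.51, and a log2 ratio of miR-191a-5p over miR-103-3p of 7.84. miR-191a-5p was also high in EGME50 replicate 11 (16.9%, next 9.52%), where the log2 ratio of miR-16-5p over miR-191a-5p was -1.19, and in EGME75 replicate 23 (18.1%, next 10.7%), where the log2 ratio of miR-191a-5p over miR-103-3p was 5.87. The share of miR-16-5p was high in EGME60 replicate 21 (12.7%, next 7.01%). miR-103-3p was low in EGME0 replicate 33, with a share of 0.182% and a log2 CPM of 10.95, and in EGME75 replicate 24, with a log2 CPM of 7.35. These values of miR-103-3p rest on 2 counts and on 0 counts.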

How the results depend on the processing

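The miR-16-5p calls held under 8 of 10 alternatives at EGME60 and at EGME75. They were lost at EGME60 with the 4-table total (-1.02) and at EGME75 with log10 depth (-0.76). Scaled to the other 2 miRNAs, miR-16-5p was at 0.17, -0.48 and -0.25 with a slope of -0.29, miR-191a-5p at 0.87 (EGME60) and -0.090 (EGME75) with a slope of 0.25, and miR-103-3p at 0.29, 0.64 and 0.44 with a slope of 0.54. By construction this scaling removes a fall that the 3 share. The miR-191a-5p value at EGME60 changed sign with RLE factors (0.15), no filter (0.019), DESeq2 (0.15), only the groups compared (0.12) and without libraries under 1000 counts (0.12), and its EGME75 call was lost with library totals (-0.48). Its slope was called with the 4-table total (-1.94), chip as a block (-0.82) and log10 depth (-1.13). The miR-103-3p call at EGME75 was lost with library totals (-0.21), no filter (-0.89), log10 depth (-0.37) and only the groups compared (-0.73), and its slope with those totals (-0.12), the 4-table total (-1.40), no filter (-0.69), the chip block (-0.72), log10 depth (-0.36) and without the shallow libraries (-0.58). With library totals it turned to 0.074 at EGME50 and 0.010 at EGME60. The cause of these changes was not tested. Counts of called miRNAs moved from 3 at EGME50 to 0 (RLE, where 18 had an unadjusted p under 0.05; the 4-table total, 9; the chip block, 8) or 11 (library totals, no filter), from 33 at EGME60 to 1 (4-table total) or 61 (no filter), and from 48 for the slope to 22 and 90. With 1 library left out, miR-191a-5p ran from -0.94 to 0.22 at EGME60 and from -1.12 to -0.62 for the slope. miR-103-3p ran from -0.90 to -0.73 at EGME75 and from -0.73 to -0.60 for the slope, and the count at EGME50 from 0 to 5. Group mean shares stayed within 1 SD under the alternatives tried, but the SD of miR-191a-5p in EGME60 is made by replicate 6, without which its mean share was 7.15% instead of 10.8%. Leaving out libraries from the mean shares and ranks was chosen after seeing the data. No paired analysis was possible because each replicate number in the labels belongs to a single male of 1 group. Separate males are the replicates, and the EGME75 values rest on the fewest counts.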
